A study of Mus musculus with 6 samples.

Results

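Small nucleolar RNA (snoRNA) host genes are transcripts whose introns carry snoRNAs, the short guide RNAs that direct 2′-O-methylation and pseudouridylation of ribosomal and spliceosomal RNA. Gas5 and 9 genes of the Snhg series, Snhg1, Snhg3, Snhg4, Snhg5, Snhg6, Snhg8, Snhg11, Snhg12 and Snhg14, were chosen by symbol, and 7 of these 10 had an entry among the 43346 genes counted. Snhg4 had no entry in the annotation used here, GENCODE M21. The M21 identifiers of Snhg1 and Snhg8 were not among the genes counted. Entries under older identifiers were not looked for, so Snhg1, Snhg4 and Snhg8 were not analysed here. Of the 7, Gas5, Snhg5, Snhg6, Snhg11 and Snhg14 reached 10 CPM (counts per 1000000 counts of a library) in at least 3 libraries and were tested with 10520 genes in all. Snhg12 reached only 1 CPM in at least 3 libraries and was tested with 15311 genes. Snhg3 gave at most 5 counts in a library.

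RNA was sequenced from primary cortical cell cultures of mouse embryos at gestational day 15.5, labelled strain Cyp19-EGFP and genotype SRY+, whereas the study's methods name C57BL/6 embryos for this experiment. Cells of cultures 1, 3 and 4 received either vehicle (DMSO, spelled DSMO in the labels) or 1 mM 10HDA, trans-10-hydroxy-2-decenoic acid, a fatty acid of royal jelly with estrogenic activity. The comparison asked which transcripts 10HDA changed in these cortical cells, with 3 vehicle and 3 10HDA libraries, 1 of each per culture. How many embryos made up a culture was not given in the sources used here, so P values measure the spread between these libraries.

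The libraries held 9144736 to 13367194 counts. Neuron markers (12 of 12 at or above 1 CPM) summed to 9499 to 10037 CPM with vehicle and 7933 to 8950 CPM with 10HDA, astrocyte markers to 1300 to 1596 and 974 to 1213 CPM, and all 7 microglia markers were below 1 CPM. Uty, Kdm5d, Ddx3y and Eif2s3y, 4 genes of the Y chromosome, together gave 9.07 and 9.30 CPM in the vehicle and 10HDA samples of culture 1, against 97.8 to 136 CPM in the other 4 libraries, although all carry the SRY+ label. Calls of the hosts named above and totals of calls are therefore also given without culture 1. Calls of other single genes are not.

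Most noncoding hosts make no known protein, and their spliced exons are often short-lived: many contain short open reading frames, are engaged by ribosomes and are degraded by nonsense-mediated decay, so that their level depends on translation as well as on transcription. Many also start with a 5′ terminal oligopyrimidine (TOP) tract, a run of C and U directly at the cap that ribosomal protein and elongation factor mRNAs share and through which mTOR signalling controls translation. Gas5, growth arrest-specific transcript 5, was named for its accumulation in arrested cells, Snhg11 is known as a neuron-enriched transcript, and Snhg14 is the long imprinted transcript that hosts the Snord115 and Snord116 clusters and runs antisense to Ube3a.

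The first 30 bases of annotated transcripts are given below. For a host with any transcript that began with CTTT, the longest such transcript was picked, and otherwise the longest of all. A line therefore does not stand for the usual start of its gene. The sequences are GENCODE M21 (GRCm38) in DNA letters, with the opening run of pyrimidines in capitals. Snhg11 and Snhg14 do not open with such a run and are given for contrast.
Gas5: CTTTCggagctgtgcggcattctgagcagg
Snhg5: CTTTTacgacggagcctaagatattctttg
Snhg6: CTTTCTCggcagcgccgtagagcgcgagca
Snhg12: CTTTCTCgcttcatccgcggtccctgtctg
Snhg11: agcgcgcgcagccgcagctgggcagacact
Snhg14: acttttataccaatcatctagtagttgcag

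At least 1 annotated transcript began with CTTT, read on the transcript strand only, in 4 of the 7 genes, namely Gas5, Snhg5, Snhg6 and Snhg12. Among the 10482 tested genes with an annotated transcript, 308 (2.94%) had such a start. Genes with many annotated transcripts have more chances of a match, and these hosts have 5 to 25. In Gas5 the match was in 4 of 25 transcripts, in Snhg5 in 1 of 6, in Snhg6 in 1 of 5 and in Snhg12 in 1 of 10. The match describes these letters and not a mapped cap site.

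The snoRNAs themselves lie in the same genes. A C/D box snoRNA of each host with a CTTT start is shown because these are the products that the host transcription units release. Capitals mark box C (TGATGA, the first in the sequence) and box D (CTGA, the last in the sequence), which bind the core methylation complex, and each sequence is given on its own strand. Of 1507 annotated mouse snoRNA transcripts, 362 (24.0%) held TGATGA followed by CTGA.
Snord47 in Gas5, chr1:161038082-161038158, plus strand: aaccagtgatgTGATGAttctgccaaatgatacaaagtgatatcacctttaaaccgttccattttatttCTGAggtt
Snord50a in Snhg5, chr9:88521529-88521600, minus strand: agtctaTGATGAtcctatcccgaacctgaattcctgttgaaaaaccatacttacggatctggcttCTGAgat
Snord87 in Snhg6, chr1:9942463-9942549, minus strand: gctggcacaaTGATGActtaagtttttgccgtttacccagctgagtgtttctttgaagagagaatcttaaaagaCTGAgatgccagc
Snord99 in Snhg12, chr4:132310691-132310764, plus strand: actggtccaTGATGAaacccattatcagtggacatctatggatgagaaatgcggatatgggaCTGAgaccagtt

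The libraries measured the hosts and hardly the snoRNAs. The annotation places 239 snoRNA models inside the loci, 208 of them in Snhg14, and 237 have an entry of their own. Only 20 of these had any count, with 103 counts in all 6 libraries together, while the 7 hosts held 40621 counts. All 9 snoRNA entries of Gas5 were at 0, below the floor of 3 counts, which equals 0.224 to 0.328 CPM per library. Snord87 of Snhg6 had 13 counts, Snora16a of Snhg12 had 13 and Snora24 of Snhg8 had 26. In Gas5 all 10 snoRNA models lie within an exon of some annotated host transcript, and its gene model covers 3760 of the 4118 bases of the locus (91.3%), so a read counted for Gas5 may come from sequence that other Gas5 transcripts splice out. Reads that fall in both the host model and a snoRNA model may have been left unassigned. The zeros of such snoRNAs therefore set no upper limit on their levels. The levels below are therefore levels of host transcripts, spliced or not.

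Levels in CPM per kilobase of gene model rank the hosts. With vehicle, Snhg11 was highest at 38.5 ± 7.19 (SD, n = 3), followed by Gas5 at 25.0 ± 2.64, Snhg5 at 13.4 ± 1.69, Snhg6 at 10.9 ± 1.78, Snhg14 at 4.85 ± 1.01 and Snhg12 at 4.55 ± 0.82. The ranges of mean ± SD overlapped for Snhg5 and Snhg6, and for Snhg14 and Snhg12, and these genes were not compared within libraries. With 10HDA the levels were 32.9 ± 7.49 for Snhg11, 24.6 ± 2.73 for Gas5, 16.4 ± 2.89 for Snhg5, 15.8 ± 3.95 for Snhg6, 7.0 ± 1.71 for Snhg12 and 5.13 ± 0.15 for Snhg14. Values per kilobase depend on the gene model, which for Snhg14 spans only 26093 of 667836 bases (3.91%).

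No host gene passed the test of 10HDA against vehicle at an adjusted P of 0.1 (edgeR quasi-likelihood test, TMM scaling, Benjamini-Hochberg over all genes tested). The count was 0 of 5, where 0.627% of the 10520 genes passed, and 0 of 6 with the 1 CPM minimum, where 0.509% of 15311 passed. DESeq2 and limma-voom also gave 0. At an unadjusted P below 0.05 there was 1 of 5, Snhg6, where 10.1% of all genes tested had such a P, and with the 1 CPM minimum 2 of 6, Snhg6 and Snhg12, where 10.4% had. With culture as a block, since the labels tie each vehicle library to a 10HDA library of the same culture, Snhg6 passed (1 of 5, against 8.98% of all genes), and with the 1 CPM minimum Snhg6 and Snhg12 passed (2 of 6, against 7.5%). Both were higher with 10HDA.

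Snhg6, at chr1:9941959-9944118 on the minus strand, is a long noncoding RNA that hosts Snord87. It was at 13.7, 13.5 and 10.1 CPM in the vehicle libraries of cultures 1, 3 and 4, and at 21.1, 20.4 and 12.9 CPM in their 10HDA libraries. All 3 cultures were higher with 10HDA, but the 10HDA library of culture 4 was below 2 of the vehicle libraries, so the groups overlapped. The log2 fold change was 0.55 (SE 0.20, adjusted P = 0.398, edgeR), with a 95% interval of 0.11 to 0.98. With the culture block the fold change was 0.53 (SE 0.13, interval 0.25 to 0.81) and the adjusted P was 0.017. The blocked call was kept with each culture left out in turn. The adjusted P was 0.0987 without culture 1, just under the threshold of 0.1, 0.0386 without culture 3 and 0.0570 without culture 4. In edgeR fits without the block, adjusted P values with a culture left out ran from 0.190 to 0.771. Without the 10HDA library of culture 4 the unblocked fold change was 0.73, with an adjusted P of 0.055.

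Snhg12, at chr4:132308623-132311024 on the plus strand, hosts Snord99 and 3 H/ACA box snoRNAs that were counted apart (Snora16a, Snora44 and Snora61). It was at 8.06, 8.28 and 5.86 CPM with vehicle and at 14.6, 10.0 and 9.53 CPM with 10HDA. Every 10HDA library was above every vehicle library, a separation that 13.8% of the 15311 genes showed in either direction, and that 13.4% of the 10520 showed. The log2 fold change was 0.64 (SE 0.21, interval 0.18 to 1.09, adjusted P = 0.316, edgeR, 1 CPM minimum). The culture block gave 0.62 (SE 0.16, interval 0.28 to 0.95, adjusted P = 0.030). This call was lost when culture 1 was left out (0.47, adjusted P = 0.203) and when culture 4 was left out (0.56, adjusted P = 0.191). Culture 1 had the largest within-culture difference, 0.84 on the log2 scale, against 0.27 in culture 3 and 0.69 in culture 4.

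Snhg5, at chr9:88521050-88522929 on the minus strand, hosts Snord50a and Snord50b. Its vehicle libraries held 26.3, 22.9 and 20.5 CPM and its 10HDA libraries 32.2, 30.4 and 22.8 CPM. Each culture was higher with 10HDA, by 0.29, 0.41 and 0.15 on the log2 scale, while the groups overlapped. The fold change of 0.30 (SE 0.16, interval -0.05 to 0.64) did not pass, with an adjusted P of 0.532, and neither did the blocked value of 0.29 (SE 0.12, adjusted P = 0.148). Snhg5 and Snhg6 were thus 2 of the 5 tested hosts that were higher in all 3 cultures, which 18.6% of the 10520 genes were. With Snhg12 they made 3 of 6, where 19.5% of the 15311 genes were.

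**Figure D1:**
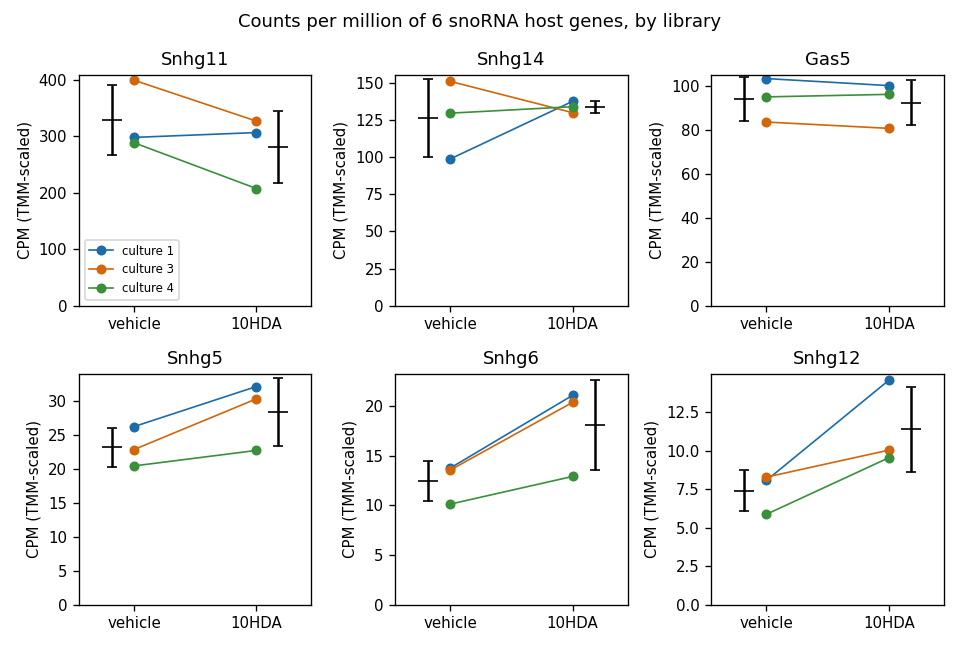
Each panel plots the TMM-scaled CPM of 1 host gene in the vehicle and 10HDA libraries, with a line joining the libraries of a culture and black bars for the mean ± SD (n = 3). Lines for Snhg5, Snhg6 and Snhg12 all slope upward, those for Gas5 are nearly level, and those for Snhg11 and Snhg14 run in both directions.

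Gas5, at chr1:161034422-161038539 on the plus strand, is the multi-snoRNA host best known as a growth arrest transcript and as a decoy for the glucocorticoid receptor. It was at 103, 83.6 and 95.1 CPM with vehicle and at 100.2, 80.7 and 96.2 CPM with 10HDA. Within each culture the pair of libraries lay close together, at log2 differences of -0.05, -0.05 and 0.02, while cultures differed more than treatments did. The fold change was -0.03 (SE 0.12), with a 95% interval of -0.29 to 0.23 and an adjusted P of 0.953. The blocked interval was -0.22 to 0.17 (adjusted P = 0.917). The sign of this small value turned with the scaling, at 0.05 with library size alone. Gas5 shares the CTTT start of Snhg5, Snhg6 and Snhg12, and its pattern over the libraries differed from theirs. Pearson's r of log2 CPM over the 6 libraries was 0.97 for Snhg5 with Snhg6, 0.88 for Snhg6 with Snhg12 and 0.84 for Snhg5 with Snhg12, and -0.02, -0.21 and 0.07 for Gas5 with Snhg5, Snhg6 and Snhg12. These coefficients are a description of 6 libraries that share treatment, culture and depth.

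Snhg11, at chr2:158375638-158386145 on the plus strand, had the highest level of the hosts per kilobase. The annotation used here classes it as protein coding, unlike the other hosts with an entry. It was at 298, 399 and 288 CPM with vehicle and at 306, 327 and 207 CPM with 10HDA. Culture 1 was nearly level (0.04 on the log2 scale), whereas culture 3 differed by -0.29 and culture 4 by -0.48. The fold change of -0.23 (SE 0.17, interval -0.61 to 0.15) had an adjusted P of 0.662, and the blocked value was -0.24 (SE 0.10, adjusted P = 0.172). Without culture 1 the blocked value was -0.36 and passed (adjusted P = 0.041), and without culture 4 it was -0.12 (adjusted P = 0.860). The summed neuron markers were lower in all 3 10HDA libraries, and their part in the Snhg11 values was not tested. In bulk RNA, fewer cells of a type and less RNA per cell cannot be told apart.

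Snhg14, at chr7:59307924-59975759 on the minus strand, was at 98.8, 151 and 129.6 CPM with vehicle and 138, 130.0 and 134.0 CPM with 10HDA. The vehicle library of culture 1 was the lowest and that of culture 3 the highest, so the cultures differed in sign, at 0.48, -0.22 and 0.05 on the log2 scale. The fold change was 0.08 (SE 0.14, interval -0.22 to 0.38, adjusted P = 0.853), and it turned to -0.07 without culture 1. Snhg3, at chr4:132348014-132353686 on the minus strand, had 5, 2 and 1 counts with vehicle and 0, 2 and 0 with 10HDA. A single library was above the floor of 3 counts, and no fold change is given.

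**Figure D2:**
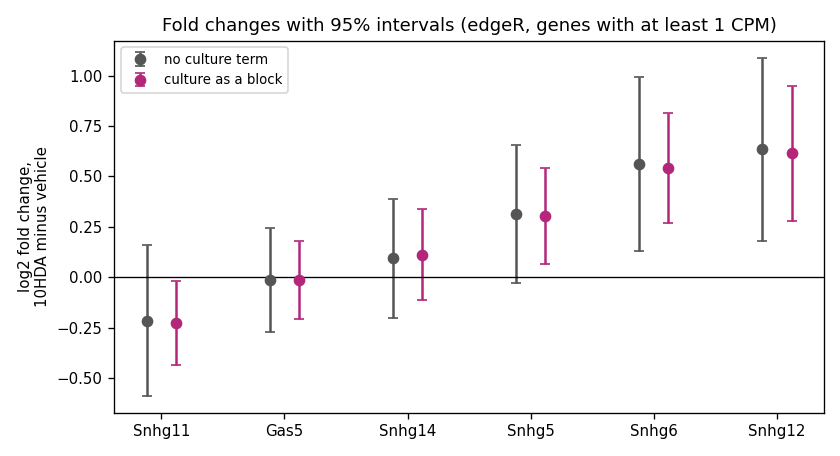
The log2 fold change of 10HDA against vehicle is plotted for 6 host genes with its 95% interval, without a culture term (grey) and with culture as a block (magenta), from fits with the 1 CPM minimum. Intervals of Snhg6 and Snhg12 lie above 0 in both fits, those of Gas5 and Snhg14 span 0, and the Snhg5 and Snhg11 intervals clear 0 only with the block.

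Protein-coding neighbours were measured because several overlap the hosts. Rcc1, the nuclear exchange factor for Ran, lies on the same strand as Snhg3 with its start 81 bases away, and was at 21.1, 21.2 and 17.5 CPM with vehicle and 26.1, 28.2 and 22.3 CPM with 10HDA. All 10HDA libraries were above all vehicle libraries, and 13.4% of the 10520 genes were separated in either direction. The Rcc1 fold change of 0.36 (SE 0.14, adjusted P = 0.431) passed with the block (0.36, adjusted P = 0.071), as 8.98% of all genes did. The Snhg3 counts thus gave no value for a locus whose coding partner had 199 to 382 counts, and reads from shared exons may have been left unassigned. Slc3a2, the heavy chain of the amino acid exchangers paired with Slc7a5 and Slc7a11, starts 106 bases from Snhg1 on the opposite strand and had a fold change of 0.24 (SE 0.12, adjusted P = 0.530), with each of the 3 cultures higher and a blocked adjusted P of 0.129.

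Zbtb37, a zinc finger gene, overlaps the start of Gas5 on the opposite strand and had a fold change of -0.04 (SE 0.25, adjusted P = 0.965), with its lowest value, 23.9 CPM, in the vehicle library of culture 1 and 37.3 to 59.1 CPM elsewhere. Ube3a, the ubiquitin ligase gene antisense to Snhg14, likewise had its lowest value there, 44.4 CPM against 56.8 to 87.3 CPM, and a fold change of -0.09 (SE 0.21, adjusted P = 0.898). Gm38393, which overlaps the upstream end of Snhg14, was at -0.26 (SE 0.27, adjusted P = 0.747). Mcmdc2, which overlaps the end of Snhg6 from the other strand, held 1.65 to 2.89 CPM and did not pass (-0.20, adjusted P = 0.826). The library kit kept strand, but whether the counting used it is not given in the sources used here, so antisense reads may be included in these pairs.

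The other genes of the Snhg14 locus on chromosome 7 gave no call. Snrpn, which encodes a spliceosomal protein, had a fold change of -0.07 (SE 0.10, adjusted P = 0.801), Ndn was at 0.00 (SE 0.14, adjusted P = 1.00), Magel2 at 0.02 (SE 0.19, adjusted P = 0.977) and Mkrn3 at 0.06 (SE 0.16, adjusted P = 0.917). Peg12 was tested only with the 1 CPM minimum, at 0.17 (SE 0.22, adjusted P = 0.801). Snurf was at 0 in every library, which is not read here as absence. Of the 8 genes listed, 5 were tested with the 10 CPM minimum, and none passed with or without the block.

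A further 13 symbols of noncoding snoRNA hosts were listed, of which Snhg2 is an older name of Gas5 and 9 had an entry. With the 1 CPM minimum 8 were tested, 6 had values above 0, and the median log2 fold change was 0.26, against 0.01 over all 15311 genes. None passed without the block. Epb41l4aos, an antisense host transcript, was at 6.78, 7.04 and 5.44 CPM with vehicle and 10.8, 10.2 and 7.63 CPM with 10HDA. Its groups did not overlap, where 13.8% of the 15311 genes were separated in either direction. Its fold change of 0.59 (SE 0.19, adjusted P = 0.309) passed with the block (adjusted P = 0.041), as 7.5% of these genes did.

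Snhg20 was at 16.5, 12.3 and 10.1 CPM with vehicle and 18.3, 20.6 and 13.5 CPM with 10HDA, higher in all 3 cultures, and its fold change of 0.44 (SE 0.20, adjusted P = 0.500) also passed with the block (adjusted P = 0.065). Snhg15 lay lower, at 1.70 to 2.56 CPM with vehicle and 2.69 to 3.61 CPM with 10HDA, and its value of 0.60 (SE 0.25) did not pass in either fit (blocked adjusted P = 0.183). Zfas1, whose 10HDA libraries ran from 9.98 to 18.4 CPM, was at 0.35 (SE 0.21, adjusted P = 0.578) and Snhg17 at 0.15 (SE 0.12, adjusted P = 0.673). Rian, the abundant imprinted host of a C/D box cluster, was at 0.11 (SE 0.12, adjusted P = 0.748), Mirg at -0.16 (SE 0.15, adjusted P = 0.732) and Snhg18, at about 1 CPM, at -0.45 (SE 0.45, adjusted P = 0.743). Snhg9 was at or below the floor in each library.

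**Figure D3:**
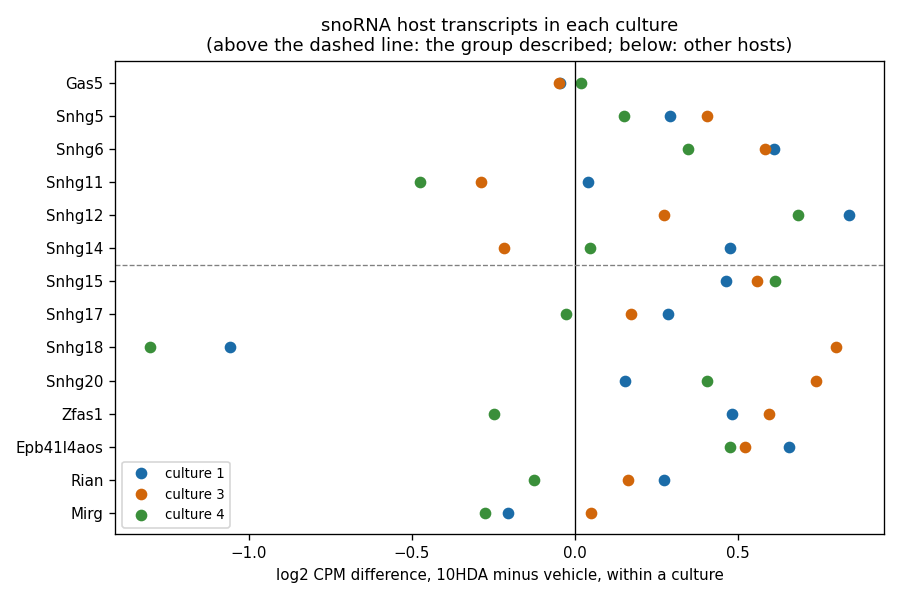
For 14 snoRNA host transcripts the log2 CPM difference of 10HDA minus vehicle is plotted for each culture, with the genes described first above the dashed line and the other hosts below it. All 3 points lie to the right of 0 for Snhg5, Snhg6, Snhg12, Snhg15, Snhg20 and Epb41l4aos, while the Gas5 points lie between -0.05 and 0.02.

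Many vertebrate snoRNAs sit in protein-coding genes for translation factors and ribosomal proteins, so these were counted as well. Of 32 tested protein-coding hosts 23 had fold changes above 0, with a median of 0.13 against -0.01 over all genes tested, and 0 passed. With the block 3 of the 32 passed, all higher, where 8.98% of all genes passed in either direction and 3.91% passed as higher. Rps20 was at 61.6 ± 4.68 CPM with vehicle and 82.8 ± 13.7 CPM with 10HDA (0.43, SE 0.13, adjusted P = 0.300, blocked 0.013). Tpt1, the translationally controlled tumour protein gene with a TOP start, was at 0.48 (SE 0.20, adjusted P = 0.454, blocked 0.002), while Hspa9, a mitochondrial chaperone gene, at 0.24 (SE 0.11) did not pass in either fit.

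Of 43 tested ribosomal protein genes that are not among these hosts 39 were above 0, with a median of 0.26. None passed without the block and 15 of 43 did with it, all higher, beside the same 3.91% of all genes that passed as higher. Rplp2 (0.38, SE 0.12, adjusted P = 0.300, blocked 0.030), Rpl34 (0.68, SE 0.22, adjusted P = 0.333, blocked 9.4e-04) and Rps14 (0.63, SE 0.22, adjusted P = 0.388, blocked 5.8e-04) were among those with the smallest P values. Genes of this family have many near-identical pseudogene copies that share reads with them, so these values are uncertain. The list median was 0.17, 0.42 and 0.09 in cultures 1, 3 and 4.

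The snoRNAs act bound to proteins. Of 18 tested genes for core snoRNP proteins and assembly factors 10 were above 0, with a median of 0.00 and 0 calls. With the block, 1 of 18 passed, Naf1, an assembly factor of H/ACA particles (12.6 ± 1.10 CPM with vehicle and 17.0 ± 1.04 CPM with 10HDA, 0.43, SE 0.13, adjusted P = 0.311, blocked 0.058). Nhp2 at -0.19, Fbl, the methyltransferase fibrillarin, at -0.19 and Nolc1 at -0.13 had adjusted P values of 0.616 to 0.679. Nonsense-mediated decay factors were measured for the turnover of spliced hosts. Of 25 tested, 14 were above 0, the median was 0.03, and 0 passed in either fit, with Rnps1 at -0.17, Ncbp2 at 0.14, Rbm8a at 0.17 and Dhx34 at 0.19 having the smallest P values. At an unadjusted P below 0.05 in the unblocked edgeR fit there were 3 protein-coding hosts, 11 other ribosomal protein genes, 1 snoRNP gene and 0 decay factors or other noncoding hosts of the 10 CPM set, out of 32, 43, 18, 25 and 5 tested, where 10.1% of all genes had such a P. Over these lists together, DESeq2 called 2 genes and limma-voom 0.

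**Figure D4:**
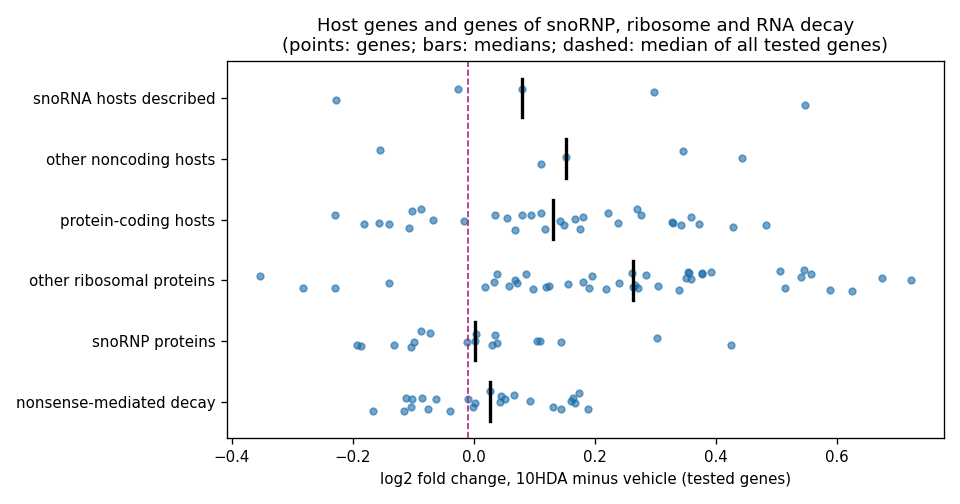
Log2 fold changes of the tested genes of 6 lists are plotted as points, with black bars for list medians and a dashed line at the median of all tested genes, -0.01. Ribosomal protein genes lie mostly to the right of the line, whereas snoRNP and decay factor genes are spread around it.

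A CTTT start was also read against the fold changes of all genes. The 308 tested genes with such a start had a median log2 fold change of 0.00, and the others of -0.01. Among the 56 ribosomal protein genes with an entry 7 matched (12.5%), and the tested ones had medians of 0.45 with the start and 0.26 without it. Among the 34 protein-coding hosts 8 matched (23.5%), with medians of 0.17 and 0.10. Among the hosts described first, those with the start that were tested at 10 CPM had a median of 0.30 and those without it of -0.07. Ribosomal protein mRNAs share the TOP tract, yet 7 of 56 of these genes matched, so the CTTT match missed most of them. Genes without a match are therefore not genes without a TOP tract, and the medians do not compare those groups. These are medians of few genes, and the differences were not tested.

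Cell markers were read in the same libraries. Of 12 neuron markers 11 were below 0, with a median of -0.24, and 5 passed with the block, all lower, where 5.08% of all genes did. Rbfox3 was at -0.42 (adjusted P = 0.248, blocked 0.015), Snap25 at -0.39 (adjusted P = 0.267, blocked 0.011), Gap43 at -0.33 (adjusted P = 0.301, blocked 0.037) and Syt1 at -0.31 (adjusted P = 0.311, blocked 0.050). Of 10 tested astrocyte markers 5 passed without the block, all lower, where 0.428% of all genes did, among them Aldoc (-0.81, adjusted P = 0.019), Aldh1l1 (-1.02, adjusted P = 0.023), Gfap (-1.28, adjusted P = 0.043) and Clu (-0.66, adjusted P = 0.043).

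Of 7 tested oligodendrocyte lineage markers 4 were below 0 and 3 above, with a median of -0.06. Of these 1 passed, lower (Cspg4, -0.92, adjusted P = 0.043). Pdgfra at -1.21 and Sox10 at -1.44 passed with the block only, and Olig2 was at 0.24 (adjusted P = 0.463). The lineage markers summed to 343 to 431 CPM with vehicle and 263 to 373 CPM with 10HDA, ranges that overlap. Of 8 radial glia and dividing cell markers none passed without the block, with sums of 505 to 535 and 511 to 591 CPM, and Vim, at 0.32, passed with it (adjusted P = 0.041), whereas Cdk1, Top2a and Sox2 did not. The endothelial and pericyte markers summed to 17.8 to 19.3 and 8.25 to 11.3 CPM, with 6 of 7 below 1 CPM and Pdgfrb lower (-1.07, adjusted P = 0.043). Microglia markers summed to 0.66 to 1.23 CPM, and Tmem119 was at 0. The part of cell makeup in the values of Snhg6, Snhg12 and the other hosts was not tested.

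Genes most like Gas5 over the 6 libraries, by Pearson's r of log2 CPM among 10519 genes, were Amigo1 (0.97), Eif2s3x (0.97), Glb1 (0.97), Acot13 (0.97) and Terf2 (0.96). Those most like Snhg11 were Slc12a5 (0.99), the neuronal potassium-chloride cotransporter gene, Psd2 (0.98), Dzank1 (0.97), Rsad1 (0.97) and Sp9 (0.96). With 6 libraries and this many genes, such coefficients describe the ranking and carry no test.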

How the data were processed

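The deposited table held raw counts per gene, which the authors made from 50 bp single-end reads of a strand-specific kit, checked with FastQC, aligned untrimmed to mm10 with Subjunc (Subread 1.4.4) and summarised with featureCounts on Gencode models. The authors' own tests used edgeR 3.4.2 in R 3.0.2. The deposited length column gave the gene models' lengths. Symbols came from GENCODE M21 (GRCm38) for 42462 identifiers, as did positions, transcript starts and snoRNA sequences.

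Counts were tested with edgeR 4.0.16 in R 4.3.3 (quasi-likelihood test, TMM, at least 10 CPM in 3 libraries, Benjamini-Hochberg, threshold 0.1, no culture term, as the study's methods name none), and SE is the fold change over the root of F. Snhg12 and other low hosts used a minimum of 1 CPM. CPM values are TMM-scaled. The test without the block was checked on simulated counts drawn without differences between cultures, so the blocked fit was not checked. Libraries were grouped by the labelled treatment. Deviations of libraries from their group mean correlated across genes at 0.37, 0.24 and 0.62 within a culture, against -0.45 to 0.18 between different cultures. Such deviations cancel out within a group, so positive values within cultures push those between cultures down, and the contrast is no test. The labels name the culture, so blocked values are given where calls change. Alternatives covered scaling, DESeq2 1.42.0, limma-voom (limma 3.58.1), filters, threshold, the block and left-out libraries.

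Members and lists were chosen with earlier results of these data known. Named genes are all 10 hosts, up to 4 genes per list with the smallest P, all other noncoding hosts, overlapping or near (5 kb) coding neighbours, the Snhg14 locus, and the 5 genes most like Gas5 and Snhg11. Some genes that this rule names are not reported here. Depth limits precision for Snhg3 and the snoRNAs, and floors of 3 counts cover counting error only.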

Additional observations from a re-analysis of the deposited data

How the results depend on the processing

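The number of hosts called, 0, became 2 with no low-count filter, 1 with the replicate block, 2 with the block and the 1 CPM minimum, 0 to 1 with 1 library left out, and 2, 1 and 1 with the block and without culture 1, 3 or 4 (chosen after seeing the data, as are the other such values). In the lists other than the cell markers, 0 genes were called. That number became 2 with the DESeq2 Wald test, 14 with no filter, 20 with the block, and 23 with the block and 1 CPM. It was 0 to 19 with libraries left out, the highest without the 10HDA library of culture 4. With the block and without culture 1, 3 or 4 it was 17, 20 and 15. Snhg6 passed with no filter (0.56, adjusted P = 0.051), with the block (0.53) and with the block and 1 CPM (0.54), and at 0.50, 0.50 and 0.61 with the block and without culture 1, 3 or 4. Snhg12 passed with no filter (0.63, adjusted P = 0.050), with the block (0.62), and with the block and without culture 3 (0.78). Under the block without culture 1, Snhg11 passed (-0.36), and Gas5 (0.00036) and Snhg14 (-0.070) reversed. With libraries left out and no block, values ranged from 0.43 to 0.73 for Snhg6, 0.41 to 0.80 for Snhg12, 0.20 to 0.43 for Snhg5, -0.35 to -0.041 for Snhg11, -0.072 to 0.25 for Snhg14 and -0.089 to 0.069 for Gas5. Gas5 reversed with upper quartile scaling (0.0023) and library size alone (0.049). Of 124 alternative fold changes, 103 kept their sign and side of the threshold, 10 reversed and 11 newly passed, and the block, as a setting, changed no call of Gas5, Snhg5, Snhg11 or Snhg14. The median of all genes was -0.01 and became 0.07 with library size alone, under which 46.7% of 45 calls were higher, against 31.8% of 66, and 43.5% of 945 with the block. The cause of these changes was not tested.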
